A study of Mus musculus with 6 samples.

Results

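The membrane attack complex is the pore that complement proteins build in a target membrane, and its components were followed here in mouse liver as 7 genes: Hc, C6, C8a, C8b, C8g and C9, which encode parts of the complex, and Cd59a, which encodes an inhibitor of it. They were chosen by name, through the platform annotation of the array, and make up 7 of the 12394 genes that the annotation names by a single symbol. They matched 8 of 22690 probe sets, 2 for Cd59a and 1 for each other gene. C7, the remaining component of the pore, was not analysed here. The arrays measured total RNA of whole liver from Swiss-Webster mice, an outbred stock, in a series titled after Boswellia serrata, the tree that yields Indian frankincense. There were 2 arrays for a control diet, 2 for a diet with 1% of fraction 1, labelled hexane, and 2 for a diet with 1% of fraction 2, labelled methanol, each fraction being fed for 21 days. The labels used here give neither the sex nor the age of the mice, nor whether an array held 1 animal or a pool, so p-values measure the spread between these samples only, which may be technical. What the fractions hold is not in those labels either.

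Complement is a cascade of plasma proteins, most of them secreted by hepatocytes. When its last protease cleaves C5, the larger fragment binds C6 and C7, the trimer settles on a membrane and takes up C8, and C8 then draws in many copies of C9, which polymerise into a ring. C6, C7, the alpha and beta chains of C8, and C9 share a fold, the MACPF domain, that they also share with perforin of cytotoxic lymphocytes. The gamma chain of C8 is unrelated and belongs to the lipocalins, and C5 is a relative of C3. CD59, a membrane protein anchored by a lipid, protects host cells by binding C8 and C9 and stopping the ring from forming. In the mouse, C5 is encoded by Hc, of which several inbred strains carry a null allele.

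All 8 probe sets were bright: each lay at or above the 68.3 percentile of its array's probe sets on every array. Signals are given in array units, and since a probe set's brightness depends on its probes, levels are compared between arrays and not between genes. The arrays were scanned on 2 days. Control replicate 1 and fraction 2 replicate a were scanned on the later day and the other 4 on the earlier one. The arrays came from 3 chip lots, and 1 lot held the 2 arrays of the later day and no others. Over probe sets, the difference between the later and the earlier day correlated at r = 0.30 between control and fraction 2. In it, scan day and that lot cannot be told apart. Values with the scan day taken into account are therefore given beside the results. The actin probe sets that gauge RNA integrity gave a 3'/5' ratio of 3.87 on control replicate 2, the highest, and of 2.13 to 2.64 on the other 5 arrays. Control replicate 2 also read higher than control replicate 1 for C6, C8a, C8b, C8g and C9. The number of arrays limits the precision. Differences were tested with limma over 14755 probe sets, on log2 of signal plus 16, and a probe set was called at a Benjamini-Hochberg adjusted p under 0.05.

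The comparison of fraction 1 with the control diet asked which of these genes differed in liver after the hexane fraction. C6, C8b and C9 fell, to 29.0%, 34.7% and 30.1% of their control means, and these 3 were the members that passed among 8 probe sets tested. Over all tested probe sets 0.712% were called, 54 higher and 51 lower. C8a was at 48.7% of its control mean, C8g at 78.7% and Hc at 92.4%, and none of these 3 passed. All 8 probe sets lay below 0, with a median log2 fold change of -0.68, where 52.8% of all tested probe sets lay below 0 and the median was -0.02. In 7 of the 8 both fraction 1 arrays read lower than both control arrays, as they did in 22.1% of all tested probe sets. Hc was among the 7 by a narrow margin, with 2260.9 on fraction 1 replicate b against 2265.1 on control replicate 2. RNA of whole liver was measured, and the number of hepatocytes was not. Markers of hepatocytes stood at a median log2 fold change of -0.27 in 12 probe sets. The part of hepatocyte number in the members' values was not tested.

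**Figure D1:**
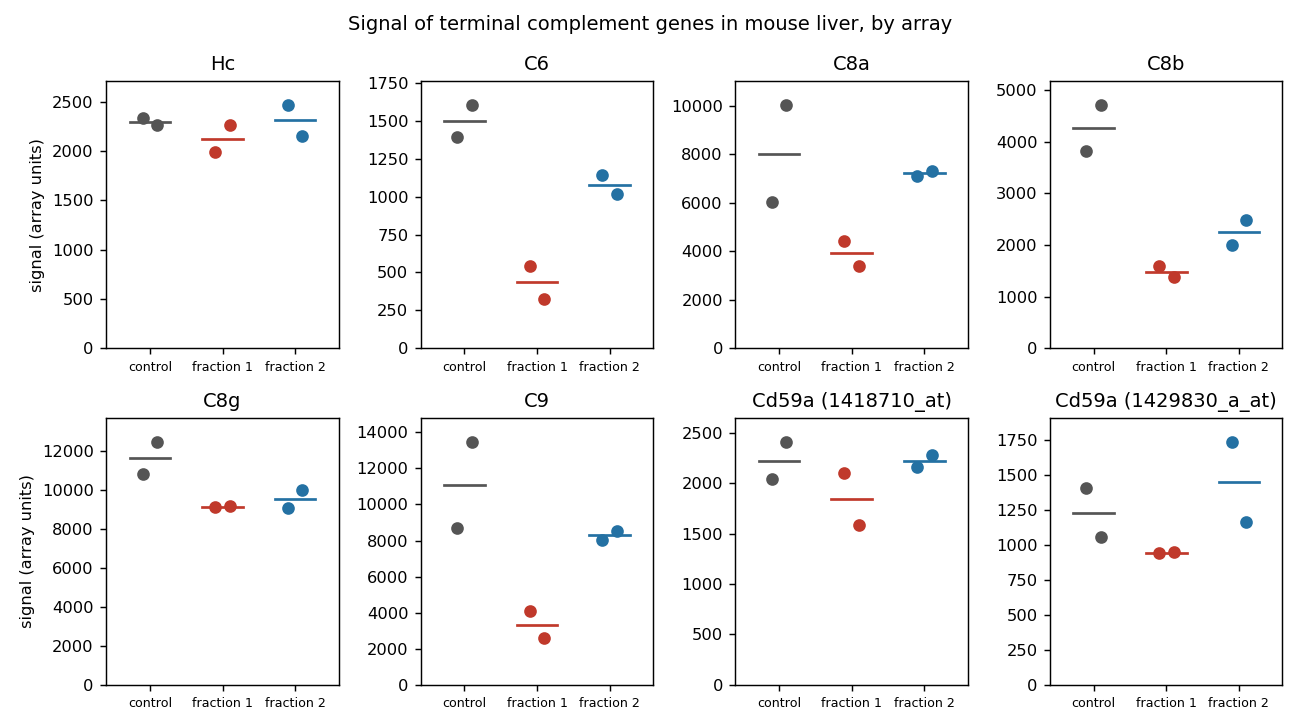
Signal of each probe set in array units on a linear axis from 0, with 1 point for each array and a line at the mean of the 2 arrays of a group. For C6, C8a, C8b and C9 both fraction 1 points lie below every other point, while the points of Hc lie between 1990 and 2465 in all groups.

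C6, whose product is the first to join the fragment of C5, gave signals of 1393 and 1603 array units on the control arrays, and of 544 and 324 on those of fraction 1. Both fraction 1 arrays were well below both controls, and the 2 fraction 1 arrays also differed from each other. The mean went from 1498 ± 149 to 434 ± 155 array units (SD, n = 2), a log2 fold change of -1.79 ± 0.25 (SE; limma, adjusted p = 0.0284). That is 3.46-fold lower, with a 95% interval of the log2 fold change from -2.37 to -1.21.

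The C8 protein is made of 3 chains from 3 genes, and their values differed. C8b, the beta chain that binds the growing complex, had control signals of 3826 and 4708, and fraction 1 signals of 1585 and 1377. The groups were far apart and the 2 fraction 1 arrays were close together. Its log2 fold change was -1.51 ± 0.19 (SE; limma, adjusted p = 0.0188), or 2.85-fold lower. C8a, the alpha chain that enters the membrane, ranged more widely, with 6027 and 10009 in control against 4423 and 3386 with fraction 1. The groups did not overlap, but the log2 fold change of -1.002 ± 0.24 did not pass (limma, adjusted p = 0.12), with an interval from -1.54 to -0.46. C8g, the gamma chain, gave 10803 and 12466 in control, and 9126 and 9182 with fraction 1. It was lower on both arrays by a small margin, at -0.34 ± 0.13 (limma, adjusted p = 0.314), with an interval from -0.63 to -0.05.

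C9, the subunit that forms most of the ring, gave 8677 and 13463 on the control arrays, against 4095 and 2570 with fraction 1. The lower control was still more than the higher fraction 1 array, although the 2 controls stood apart from each other. The log2 fold change was -1.73 ± 0.26 (SE; limma, adjusted p = 0.0319), or 3.32-fold lower. Among 14755 probe sets ordered from the largest decrease, C6 stood at place 32, C9 at 38, C8b at 73 and C8a at 278. C8g stood at 2754 and Hc at 5743.

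Hc, the source of C5, gave 2334 and 2265 on the control arrays, against 1990 and 2261 with fraction 1. Fraction 1 replicate b was close to the controls and replicate a lower, and the log2 fold change was -0.12 ± 0.16 (limma, adjusted p = 0.845), with an interval from -0.49 to 0.26. This interval and that of C9, -2.32 to -1.15, did not meet, but the difference between these genes was not tested. The inhibitor Cd59a gave 2044 and 2411 in control, against 2104 and 1587 with fraction 1, in its brighter probe set, where the groups overlapped. The dimmer one gave 1403 and 1055 against 941 and 946, without overlap. Their log2 fold changes were -0.28 ± 0.19 and -0.36 ± 0.24 (limma, adjusted p = 0.621 and 0.599). The dimmer probe set, and those of C8b and C8g, are of a design that can read more than 1 transcript of the same gene. Cd59a has a related neighbour, Cd59b, which was not analysed here. Whether the Cd59a probe sets also read Cd59b was not tested.

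**Figure D2:**
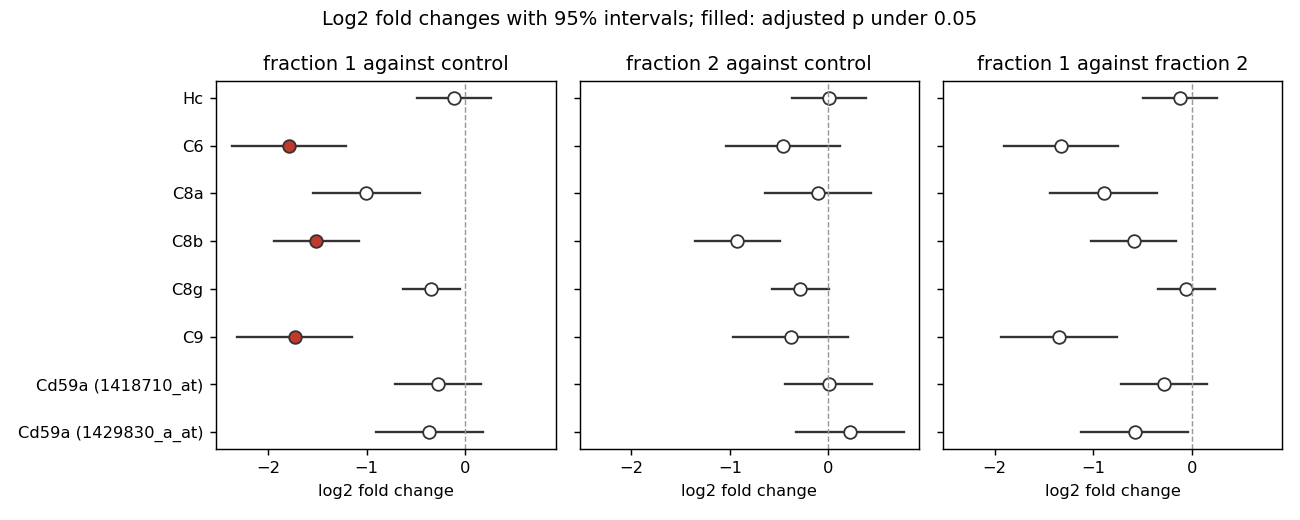
Log2 fold change of each probe set (point) with its 95% interval from limma (line) in the 3 comparisons. Filled points passed an adjusted p of 0.05, which only C6, C8b and C9 did, and only for fraction 1 against control.

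These calls stood close to the threshold. Without control replicate 2, the array with the high 3'/5' ratio, C6, C8b and C9 stood at -1.69, -1.36 and -1.42 and none passed (limma, adjusted p = 0.0759, 0.0563 and 0.074), and C8a stood at -0.64. None passed without fraction 1 replicate b either, with adjusted p from 0.176 to 0.184. Without control replicate 1, C8a passed as well, at -1.37 (limma, adjusted p = 0.0234). With the scan day as a block the log2 fold changes were -1.80 for C6, -1.67 for C8b and -1.91 for C9, all 3 passing, and -1.20 for C8a, which did not (limma, adjusted p = 0.0603). Within the earlier scan day, where control replicate 2 is the single control, they were -1.89, -1.66, -2.05 and -1.37, and C8b alone passed. The later day held no fraction 1 array. Over all 18 alternative settings the call held in 9 for C6, in 14 for C8b and in 9 for C9, and all 18 values of each lay below 0.

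**Figure D3:**
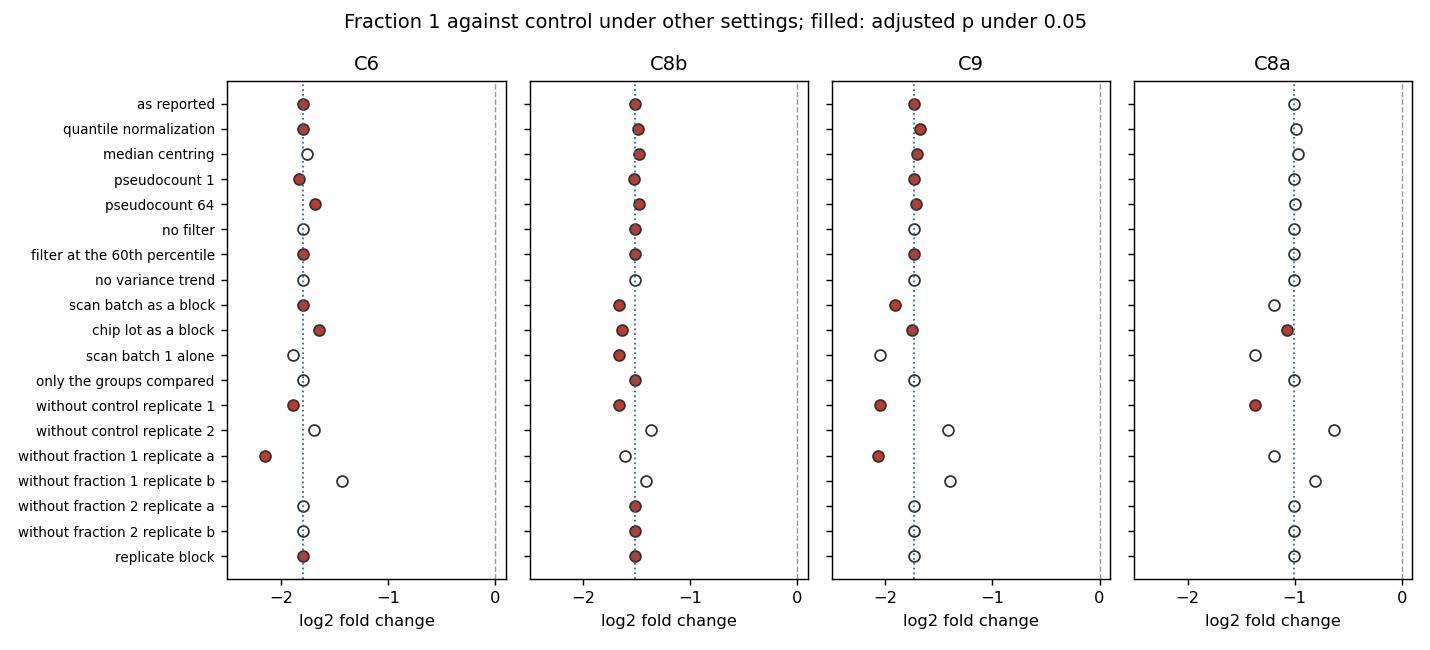
Log2 fold change of C6, C8b, C9 and C8a after fraction 1 (horizontal axis) under each alternative setting (rows), with a dotted line at the value as reported. Scan batch 1 is the earlier scan day. Filled points passed an adjusted p of 0.05, and all points lie between -2.15 and -0.64.

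The promoters of the 4 measured MACPF genes are shown because these are the members with the largest decreases after fraction 1. C8a and C8b are neighbours on chromosome 4 with no gene between them in the RefSeq table, and C6 and C9 both lie on chromosome 15, with 8 protein-coding genes between them, C7 among these. The sequences are the 250 bases before the annotated start, 5' to 3' on the strand of the gene, from RefSeq on GRCm38.p6, at chr15:4726960-4727209 (+) for C6, chr4:104876399-104876648 (-) for C8a, chr4:104766067-104766316 (+) for C8b and chr15:6445096-6445345 (+) for C9. Capitals mark matches to 5 motifs searched on both strands.
C6: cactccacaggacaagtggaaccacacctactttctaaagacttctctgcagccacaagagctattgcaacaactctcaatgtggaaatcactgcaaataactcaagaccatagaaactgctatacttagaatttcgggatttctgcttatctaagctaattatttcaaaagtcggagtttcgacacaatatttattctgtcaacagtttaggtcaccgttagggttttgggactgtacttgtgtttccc
C8a: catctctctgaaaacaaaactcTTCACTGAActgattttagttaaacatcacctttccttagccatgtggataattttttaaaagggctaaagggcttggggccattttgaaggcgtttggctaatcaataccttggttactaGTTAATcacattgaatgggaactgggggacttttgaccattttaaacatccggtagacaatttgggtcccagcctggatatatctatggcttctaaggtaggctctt
C8b: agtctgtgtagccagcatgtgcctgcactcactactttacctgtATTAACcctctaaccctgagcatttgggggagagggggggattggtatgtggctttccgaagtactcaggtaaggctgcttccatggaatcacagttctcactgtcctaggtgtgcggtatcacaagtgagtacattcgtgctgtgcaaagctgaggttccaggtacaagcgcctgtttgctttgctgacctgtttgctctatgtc
C9: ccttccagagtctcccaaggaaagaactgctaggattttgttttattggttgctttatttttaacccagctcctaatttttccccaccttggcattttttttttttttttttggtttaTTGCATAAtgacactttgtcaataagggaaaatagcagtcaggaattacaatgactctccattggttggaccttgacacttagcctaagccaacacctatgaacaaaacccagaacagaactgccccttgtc
The motifs were GTTAAT, a half-site of the hepatocyte factor HNF1, CAAAGTCCA for HNF4, TTGCNNAA for C/EBP factors, TTCNNNGAA for STAT factors and TATAAA for the TATA box. C8a and C8b each held the HNF1 half-site, from -107 to -102 in C8a and, on the opposite strand, from -206 to -201 in C8b, relative to the start. It is found in 6.43% of 32851 such windows over all annotated starts. C8a also held a STAT match from -228 to -220 (7.02% of windows), and C9 a C/EBP match from -132 to -125 (9.56%). No letters of the 5 motifs were found in the window of C6, and HNF4 and the TATA box, at 0.384% and 12.4% of windows, had no match in these 4. The window of Hc also held an HNF1 half-site, from -74 to -69, and a TATA box match from -239 to -234. A match is a description of the letters only.

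The comparison of fraction 2 with the control diet asked the same of the methanol fraction. No member passed, where 0.108% of all tested probe sets were called, and 1 of the 8 probe sets, that of C8b, had an unadjusted limma p under 0.05, as did 6.95% of all. Of the 8, 5 lay below 0, and the median was -0.20 against -0.04 over all tested probe sets. In 4, those of C6, C8b, C8g and C9, both fraction 2 arrays read lower than both controls, as in 20.4% of all tested probe sets. Fraction 1 and fraction 2 were set against the same 2 control arrays, so their changes are not independent.

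C8b read 1998 and 2490 array units after fraction 2, against 3826 and 4708 in control, without overlap. Its mean was 52.6% of control and its log2 fold change -0.92 ± 0.19 (limma, unadjusted p = 0.00104, adjusted p = 0.343), with an interval from -1.35 to -0.49. Within each scan day, where 1 array stands against 1, the difference was -0.91 and -0.93. The other members differed less. C6 read 1143 and 1017 and stood at -0.46 ± 0.25, and C9 read 8055 and 8511 and stood at -0.38 ± 0.26 (limma, adjusted p = 0.758 and 0.793). Both fraction 2 arrays were below the lower control for each gene, just below it for C9. C9 was at -0.66 within the earlier scan day and at -0.11 within the later one.

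C8a read 7105 and 7314 after fraction 2, between the 2 controls, with a log2 fold change of -0.11 and an interval from -0.65 to 0.43. It was at -0.45 within the earlier scan day and at 0.24 within the later. C8g read 9077 and 9997, under both controls, at -0.28 ± 0.13 (limma, adjusted p = 0.734). Hc read 2465 and 2158 and stood at 0.004, with an interval from -0.37 to 0.38. Cd59a stood at 0.001 in its brighter probe set and 0.22 in the dimmer one, where fraction 2 replicate a read 1734 and replicate b 1161. The intervals of C6 and C9 ran from -1.04 to 0.11 and from -0.97 to 0.20.

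The difference between the fractions was tested directly. Again no member passed, where 0.0136% of all tested probe sets were called. All 8 probe sets were lower after fraction 1 than after fraction 2, with a median log2 fold change of -0.58 against 0.02 over all, and 6 did not overlap, where 21.4% of all did so in that direction. At an unadjusted limma p under 0.05 there were 5, against 8.05% of all. C9 after fraction 1 was at 40.2% of its level after fraction 2, a log2 fold change of -1.35 ± 0.26 (limma, unadjusted p = 6.46e-04, adjusted p = 0.225), and C6 at 40.2%, or -1.33 ± 0.25 (adjusted p = 0.225). C8a stood at -0.89 ± 0.24, C8b at -0.59 ± 0.19 and the dimmer Cd59a probe set at -0.58 ± 0.24 (limma, adjusted p = 0.43, 0.5 and 0.597). Hc and C8g stood at -0.12 and -0.06, with intervals from -0.50 to 0.26 and from -0.35 to 0.23. Within the earlier scan day, against fraction 2 replicate b alone, C9 was at -1.39, C6 at -1.24, C8a at -0.92 and C8b at -0.75. With the chip lot as a block C9 passed, at -1.68 (limma, adjusted p = 0.0166). That fit has more coefficients for the same 6 arrays, and so fewer residual degrees of freedom.

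The rest of the complement system was read from lists of genes chosen with earlier results of these data known. Clusterin (Clu) and vitronectin (Vtn), which bind the unfinished complex in plasma and keep it soluble, had 6 probe sets. None passed after fraction 1, the median was -0.25, and the lowest was a Vtn probe set at -0.49 ± 0.14 (limma, adjusted p = 0.177). Of 19 tested probe sets for 13 early components none passed, with a median of -0.17, and 6 had an unadjusted p under 0.05, against 12.4% of all. The smallest p belonged to Mbl1, a mannose-binding lectin that starts the lectin pathway, at -1.09 (adjusted p = 0.0699), and to C1s1, a protease of the first component, at -1.19 (adjusted p = 0.0923). Mbl1 gave 2994 and 4163 in control, against 1872 and 1462 with fraction 1, and C1s1 4075 and 4488 against 2494 and 1386. Neither pair of groups overlapped. C2, which supplies a part of the protease that cleaves C3, went the other way without passing, at 0.47 (adjusted p = 0.339).

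Of 10 tested probe sets for 9 complement regulators none passed, all 10 lay below 0 and the median was -0.26. The smallest p belonged to C4bp, which inactivates C4b, at -0.83 (limma, adjusted p = 0.164), and to Serping1, the inhibitor of the first component, at -0.53 (adjusted p = 0.169). Among 5 tested probe sets for 4 receptors none passed and none had an unadjusted p under 0.05, and the median was 0.01. Prf1 (perforin) and Mpeg1, MACPF proteins of leukocytes outside complement, stood between -0.27 and 0.19 in 3 probe sets.

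**Figure D4:**
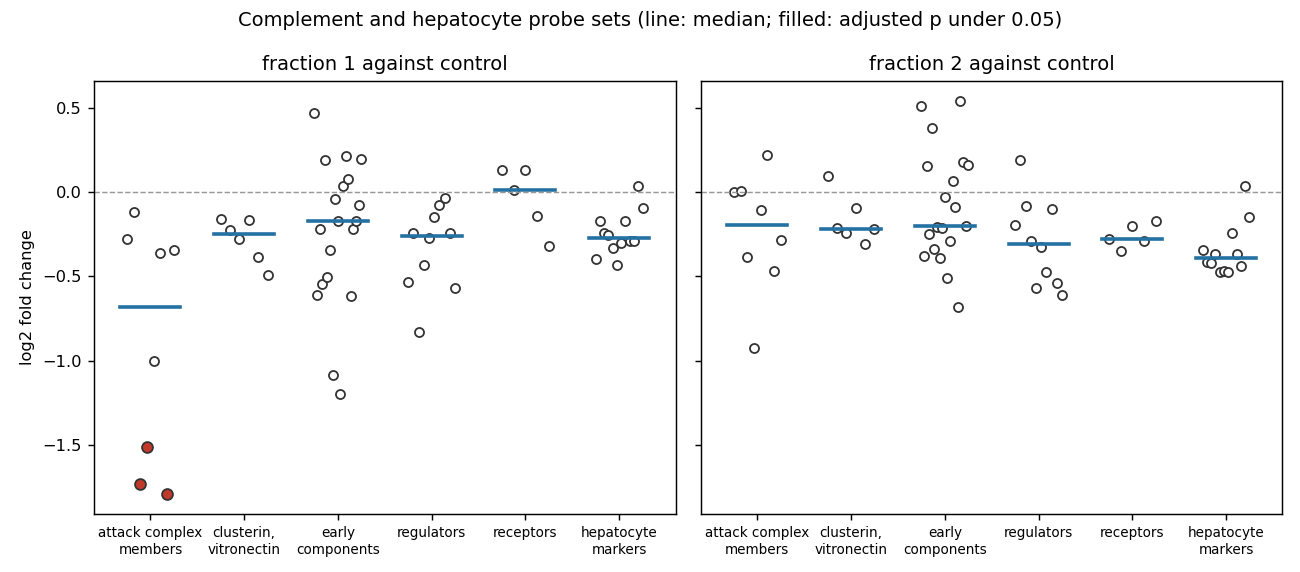
Log2 fold change of every tested probe set (points) of the attack complex members, of clusterin and vitronectin, of early components, regulators and receptors of complement and of hepatocyte markers, with a line at the median of each. Filled points passed an adjusted p of 0.05, which happened only among the members after fraction 1, whose median was -0.68 against -0.39 to 0.01 for the other lists in both comparisons.

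After fraction 2 none of these lists had a probe set that passed. The medians were -0.22 for Clu and Vtn, -0.20 for the early components, -0.31 for the regulators and -0.28 for the receptors. By unadjusted limma p under 0.05 there were 1 of 6, 2 of 19, 3 of 10 and 0 of 5, beside 6.95% of all tested probe sets. The smallest p among regulators was that of Cpn2, a subunit of the enzyme that trims the C3 and C5 fragments, at -0.61 (adjusted p = 0.606). Among early components it was that of C2, at 0.51 (adjusted p = 0.647). Between the fractions no probe set of these lists passed either, and the lowest value was that of a Masp1 probe set at -0.76, beside others of the same gene from 0.06 to 0.32. Masp1 encodes a protease of the lectin pathway.

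Hepatocyte markers stood at a median of -0.27 after fraction 1 and -0.39 after fraction 2 in 12 probe sets, and none passed. After each fraction 11 of the 12 lay below 0. After fraction 1, 9 were lower without overlap, against 22.1% of all tested probe sets. An unadjusted limma p under 0.05 was found for 5, against 12.4% of all. After fraction 2 these numbers were 11, against 20.4%, and 9, against 6.95%. The summed signal of the hepatocyte markers ran from 265700 to 301000 array units in control, 218600 to 253700 after fraction 1 and 215600 to 221600 after fraction 2. The summed signal of the 8 member probe sets ran from 36510 to 47980, 21630 to 24810 and 33740 to 34930 in the same order. Of 10 macrophage probe sets none passed, with a median of -0.25 after fraction 1, and their sums ran from 8978 to 10880 in control and 8229 to 8671 after fraction 1. A marker of red cells, Alas2, the heme synthesis enzyme of their precursors, was the only marker of another cell type that passed in any comparison: it fell to 793 and 723 with fraction 1 from 2244 and 2610 in control, while fraction 2 gave 2656 and 1502 (log2 fold change -1.66, limma, adjusted p = 0.0384). A probe set of Hba-a1, a globin, read 37.4 to 99 on all 6 arrays and was too dim to be tested. The summed signal of the red cell markers ran from 2295 to 2709 in control and 816 to 830 with fraction 1, and their part in the members' values was not tested. Endothelial and stellate cell markers had medians of -0.25 and -0.53 after fraction 1 and no probe set that passed. The smallest p among them was that of Stab2, a scavenger receptor of sinusoidal endothelium, with 1204 and 1289 in control against 726 and 581 with fraction 1 (log2 fold change -0.92, limma, adjusted p = 0.0858). The other endothelial probe sets ran from -0.51 to 0.12. Among the macrophage markers Adgre1, which encodes F4/80, stood at -0.77 and Clec4f, a lectin of Kupffer cells, at -0.55 (limma, adjusted p = 0.183 and 0.24). These were the lowest of the 10 macrophage probe sets. Of the 10, 9 lay below 0, Cd5l at -0.01 among them, and Marco stood at 0.46. The part of these cells in the members' values was not tested. Of 3 probe sets each for bile duct, neutrophil and lymphocyte markers 1 was bright enough to be tested, with log2 fold changes after fraction 1 of 0.12, -0.10 and -0.09.

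C6 and C8b are also known as male-biased genes of mouse liver, with more RNA in males than in females. A list of 12 other such genes, 8 of them on the array, was chosen with earlier results of these data known. Its counts therefore describe the list and test nothing. Of its 11 tested probe sets 7, for 6 genes, passed after fraction 1, all lower, where 0.712% of all tested probe sets passed. The median of the 11 was -1.59. Of the 11, 2 passed after fraction 2, against 0.108% of all, with a median of -0.61. None passed between the fractions, where 9 had an unadjusted limma p under 0.05, against 8.05% of all. Among the genes that passed after fraction 1 were Hsd3b5, a steroid dehydrogenase, Serpina12 (vaspin) and Slco1a1, an uptake transporter of organic anions. The others were Elovl3, which lengthens fatty acids, Cyp7b1, an oxysterol hydroxylase, and Nudt7, a hydrolase of peroxisomes. Elovl3 passed narrowly, with a limma adjusted p that rounds to 0.05. Cyp4a12a, at -1.59, and Cyp2d9, at -0.20, were lower without passing (limma, adjusted p = 0.118 and 0.637). Cyp7b1 stood at -1.55 in its brighter probe set (limma, adjusted p = 0.0273) and Nudt7 at -1.55 in its brighter one (adjusted p = 0.035), beside -1.79 for C6 and -1.51 for C8b. The sex of these mice is not in the labels, and whether it differed between the arrays was not tested.

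Over the 6 arrays the member profiles can be set side by side as a description, with the arrays of each group sharing their diet. On the log2 scale Pearson's r was 0.98 between C6 and C9, 0.98 between C8a and C9 and 0.94 between C8b and C8g. C8a and C8b, the neighbouring genes, had r = 0.81. With the mean of the standardised profiles of the 6 genes of the complex, C9, C6, C8b, C8a and C8g had r from 0.83 to 0.97, and Hc had 0.49. Each of these genes is itself part of that mean, which raises its r by construction. That mean was lowest on the 2 fraction 1 arrays (-0.94 and -1.07), 0.22 and 0.11 on the fraction 2 arrays and highest on control replicate 2 (1.12). The 6 genes most like it among 9209, members aside, were Tle2, Rufy1, Tmsb10, Mto1, Irf1 and Dusp1, with r from 0.989 to 0.990 over the 6 arrays. Irf1, an interferon-regulated transcription factor, gave 1109 and 1161 in control, 767 and 760 with fraction 1, and 1014 and 988 with fraction 2. Dusp1, a phosphatase of MAP kinases, gave in the same order 555 and 671, 296 and 317, and 522 and 462.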

How the data were processed

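Liver RNA was measured on 6 arrays. The authors deposited 1 linear signal intensity for each probe set and array. The software that made it is not given in the sources used here. The mean of each array without its lowest and highest 2% was equal over the arrays within 0.006%, so the values were used as deposited. Scan day and chip lot came from the arrays' experiment files, which hold no measurement. Of 22690 probe sets, 64 controls were left out, and symbols came from the platform annotation.

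Testing took in the 14755 probe sets that reached their array's 40th percentile on 2 or more of 6 arrays. The model was limma 3.58.1 in R 4.3.3 (lmFit, and eBayes with its trend option) on log2(signal + 16) of the 6 arrays, two-sided, with Benjamini-Hochberg adjustment over all tested probe sets. The procedure was tested on simulated data. The members, the lists and the tests were chosen with earlier results of these data known. Named were every member probe set, and of other complement lists up to 2 genes of smallest p in each comparison, of which a selection is given. The hepatocyte factors, cell type markers and male-biased genes named were chosen after their values were seen. The genes of like pattern were the 6 of highest Pearson r with the mean standardised profile of the 6 genes of the complex, 1 probe set a gene. Plots used matplotlib 3.10.9 in Python 3.11.15. The 18 alternatives are given in the closing section.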

Additional observations from a re-analysis of the deposited data

How the results depend on the processing

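After fraction 1, 3 members passed, and over the 18 alternatives the number was 0 in 3, 1 in 5, 2 in 3, 3 in 5 and 4 in 2. It was 1 (C8b) with no filter, with the arrays of the earlier scan day alone and with only the groups compared in the fit, and 0 without a variance trend. Leaving out 1 array in turn gave 0 to 4: 0 without control replicate 2 or fraction 1 replicate b, 1 (C8b) without either fraction 2 array, 2 (C6 and C9) without fraction 1 replicate a and 4 without control replicate 1. A group left with 1 array borrows the spread of the other groups. A fit with fewer arrays, or with a block, has fewer residual degrees of freedom. For the other losses the cause was not tested. Over all probe sets, 105 passed after fraction 1, and the number was 48 with median centring, 27 with no filter, 12 without a variance trend, 66 on the earlier scan day alone, 39 with only the groups compared, 51 with the replicate block and 14 to 149 with 1 array left out. After fraction 2 it was 16, and 2 to 28 over the alternatives; between the fractions it was 2, and 0 to 16. Median centring moved the median of all probe sets after fraction 2 from -0.04 to 0.07, and that of the members from -0.20 to -0.08. After fraction 2 the number was 0 in all 18 alternatives, and between the fractions it was 1 (C9) with the chip lot as a block and 0 in the other 17. The letters a and b, shared by the fractions, were taken as a replicate block: their deviations correlated at r = 0.030 over probe sets, and the labels name nothing that a letter stands for, though both b arrays also came from 1 chip lot and were scanned on the earlier day. The replicate block ended the call of C9 after fraction 1 (-1.73, limma, adjusted p = 0.0542) and left 2 members passing.

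Of 144 recomputed log2 fold changes of members after fraction 1 none changed sign; after fraction 2 13 of 144 did, and between the fractions 1 did, none of them in a value that passed. After fraction 2, Hc turned to -0.057 with quantile normalization, -0.032 with the chip lot as a block and -0.069 on the earlier scan day alone, and ran from -0.091 to 0.099 with 1 array left out. Cd59a (brighter probe set) turned to -0.045 with quantile normalization and -0.079 on the earlier scan day, and ran from -0.12 to 0.12 with 1 array left out; the dimmer one ran from -0.067 to 0.51. C8a turned to 0.0077 with median centring and 0.14 with the chip lot as a block, and ran from -0.47 to 0.26. Between the fractions C8g ran from -0.13 to 0.012 with 1 array left out.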

Other observations

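Transcription factors of the hepatocyte were read as a further list. None of 18 tested probe sets for 11 factors passed in any comparison with limma, and 3 had an unadjusted p under 0.05 after fraction 1, 1 after fraction 2 and 1 between the fractions, beside 12.4%, 6.95% and 8.05% of all tested probe sets. Cebpb, a factor of the acute phase response, gave 1553 and 955 in control, 2749 and 3139 with fraction 1, and 1583 and 1681 with fraction 2. Both fraction 1 arrays were above every other array, and its log2 fold change after fraction 1 was 1.26 (limma, adjusted p = 0.0659), while a dimmer probe set stood at 0.28. The probe sets of Hnf4a, a main factor of hepatocyte identity, disagreed after fraction 1, from 0.93 in the probe set that gave 1095 and 1261 in control to -0.34 in the dimmest, with the brightest at -0.11. Foxa1 was lower after fraction 1, with 506 and 349 in control against 238 and 256. Its log2 fold change was -0.73 (limma, unadjusted p = 0.0165, adjusted p = 0.259). Cebpa stood at -0.26.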
